A study of Mus musculus with 6 samples.

Results

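The genes described here are 10 inflammatory cytokine genes that macrophages are known for, namely Tnf, Il1a, Il1b, Il1rn, Il6, Il10, Il12b, Il16, Il18 and Osm. They were chosen by symbol from a table of 60832 mouse genes, and each symbol matched 1 gene. The table holds RNA-seq counts of cells labelled as liver sinusoidal endothelial cells (LSECs, the cells that line the small blood vessels of the liver) from young male BALB/c-Nu mice. These athymic mice lack most T cells, and all of them carried liver tumors grown from HCT116, a human colorectal cancer cell line injected into the liver. The sensitive group (3 libraries) came from bevacizumab-sensitive HCT116 CRCLM xenografts, where CRCLM stands for colorectal cancer liver metastasis. The resistant group (3 libraries) came from xenografts made resistant by repeated injections of bevacizumab, an antibody against VEGF, while vehicle mice received IgG. The sample titles and the study's methods do not say whether the sensitive group was the vehicle group. Exposure to bevacizumab and resistance to it cannot be told apart between these groups. In both groups the cells were taken with beads against CD146, and the labels give 24 h of culture. The labels do not say whether each library came from its own mouse, so the p-values measure the spread between these libraries, which may be partly technical.

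Total counts lay between 17599326 and 20726684 per library. Levels are given as CPM, the counts scaled to a common library size with TMM, on which 3 counts correspond to 0.136 to 0.194 CPM. This level of 3 counts reflects depth only and does not cover the spread between libraries. Because reads were counted without molecular identifiers, it may not cover counting error in full. The labelled cell type was checked against marker genes. The CPM of 16 macrophage and Kupffer cell markers summed to between 23236 and 42309 in the 6 libraries, that of 10 LSEC markers to between 692.6 and 1212, and that of 10 pan-endothelial markers to between 78.8 and 491.3. Mcam, which encodes CD146, had 6 to 79 counts per library. By these sums every library held far more macrophage than endothelial marker RNA, which goes against the labelled cell type. LSEC is therefore used here only as the name on the labels. Replicate 2 of the sensitive group stood apart, with Pearson's r across genes of 0.860 to 0.901 against every other library, where the other 10 pairs had 0.954 to 0.974. Values by library follow the order of replicates 1, 2 and 3. Where this library moved a fold change of a member most, the value without it is given too. In bulk RNA, fewer cells of a type and less RNA per cell cannot be told apart.

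Cytokines are secreted proteins by which immune cells signal to each other and to the tissue. TNF and the IL-1 family act early in inflammation through the transcription factor NF-κB, IL-6 and oncostatin M (Osm) act through gp130 and STAT3, and IL-10 and the IL-1 receptor antagonist (Il1rn) hold the response back. Kupffer cells, the resident macrophages of the liver sinusoid, are a main source of these cytokines in liver injury, and most of the genes are transcribed at low levels until the cell is stimulated.

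The promoters of 5 members are shown because these genes span the range of levels, from the highest (Il18 and Il1a) to low (Il1b and Il6). Il1a and Il1b are neighbours on the same strand of chromosome 2, with 54598 bases between them, and yet differed widely in level. Each run holds 250 bases before and 50 after the RefSeq start of the gene in GRCm38.p6, read 5′ to 3′ on the gene's strand. Capitals mark every match, on either strand, to 4 short motifs. GGGNNNNNCC is a loose form of the NF-κB site, and TATAAA is the box at which many transcripts are positioned. TGANTCA is the site of the factor AP-1. GAGGAA is a core bound by PU.1, a macrophage lineage factor.
Il1a, chr2:129309923-129310222, minus strand: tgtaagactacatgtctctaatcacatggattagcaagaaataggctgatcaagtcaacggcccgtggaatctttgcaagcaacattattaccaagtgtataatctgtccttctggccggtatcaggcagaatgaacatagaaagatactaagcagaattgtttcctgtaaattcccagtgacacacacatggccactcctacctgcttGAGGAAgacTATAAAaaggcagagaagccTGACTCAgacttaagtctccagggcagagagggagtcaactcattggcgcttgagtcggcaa
Il1b, chr2:129371090-129371389, minus strand: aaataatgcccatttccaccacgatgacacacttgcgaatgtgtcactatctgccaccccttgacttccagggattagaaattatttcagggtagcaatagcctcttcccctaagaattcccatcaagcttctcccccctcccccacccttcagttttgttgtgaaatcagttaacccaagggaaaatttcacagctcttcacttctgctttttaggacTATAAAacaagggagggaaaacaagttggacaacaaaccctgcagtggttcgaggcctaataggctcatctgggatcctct
Il18, chr9:50554450-50554749, plus strand: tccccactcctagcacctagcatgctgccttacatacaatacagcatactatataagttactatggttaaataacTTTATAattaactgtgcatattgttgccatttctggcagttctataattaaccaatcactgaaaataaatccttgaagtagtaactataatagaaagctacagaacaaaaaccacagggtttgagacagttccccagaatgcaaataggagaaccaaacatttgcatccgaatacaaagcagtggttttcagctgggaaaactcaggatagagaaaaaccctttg
Tnf, chr17:35201958-35202257, minus strand: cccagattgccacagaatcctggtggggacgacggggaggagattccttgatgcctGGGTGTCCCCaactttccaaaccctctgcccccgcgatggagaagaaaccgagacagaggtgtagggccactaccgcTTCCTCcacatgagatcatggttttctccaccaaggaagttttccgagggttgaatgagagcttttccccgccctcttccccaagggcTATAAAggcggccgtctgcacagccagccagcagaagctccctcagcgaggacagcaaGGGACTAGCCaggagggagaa
Il6, chr5:30012864-30013163, plus strand: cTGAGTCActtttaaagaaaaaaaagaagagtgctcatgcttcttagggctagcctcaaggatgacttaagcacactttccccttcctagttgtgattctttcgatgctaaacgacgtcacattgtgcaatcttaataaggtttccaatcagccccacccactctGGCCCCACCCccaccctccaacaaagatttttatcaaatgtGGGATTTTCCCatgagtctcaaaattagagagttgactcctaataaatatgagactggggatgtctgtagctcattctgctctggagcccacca

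TATAAA began at -32 relative to the start in Il1a, at -31 in Il1b and at -29 in Tnf, and 13.6% of 32851 RefSeq promoters of this length hold it. The match in Il18 began at -175 and the Il6 window held none. GGGNNNNNCC was found in Tnf at -194 and 29 and in Il6 at -85, -44 and -43, where the last pair of matches overlap, and was not found in Il1a, Il1b or Il18. Because 50.8% of all promoters hold this pattern, its presence sets these genes apart little. TGANTCA (7.81% of all promoters) was in Il1a at -12 and in Il6 at -249, and GAGGAA (28.3%) in Il1a at -41 and in Tnf at -117. A promoter entry was found for 8 of the 10 members.

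Per length, Il18 and Il1a had the highest means of the 10 cytokine transcripts, and Il12b was close to absent. In FPKM as deposited by the authors, a level per kilobase of gene, Il18 had 34.1 ± 7.43 (SD, n = 6 libraries) and Il1a 27.1 ± 12.3 (SD, n = 6). The order of this pair was not stable, since Il18 was higher in 4 of 6 libraries. The length behind FPKM joins the exons of all transcripts of a gene. It was 1031 bases for Il18 and 1974 for Il1a, against 5535 for Il1rn and 7865 for Il16. The order of the genes in FPKM depends on these lengths. In replicate 2 of the sensitive group Il1a had 7.69 FPKM, close to 7.31 of Il16 and 6.69 of Tnf. Il10 (4.14 ± 2.77, SD, n = 6), Il16 (4.13 ± 1.71, SD, n = 6) and Tnf (4.10 ± 1.98, SD, n = 6) followed with means closer to each other than their spread. Il1rn had 2.81 ± 0.648 FPKM (SD, n = 6) and was above Osm (1.97 ± 1.02, SD, n = 6) in 6 of 6 libraries. Il1b, the form of IL-1 best known from activated macrophages, had 1.34 ± 1.21 FPKM (SD, n = 6), Il6 0.454 ± 0.336 (SD, n = 6) and Il12b 0.0468 ± 0.0549 (SD, n = 6). On the CPM scale the 10 genes summed to between 117.7 and 185.3, and Il1a, Il16, Il18 and Il1rn made up 83.3% to 93.0% of that sum in each library. The members also differed in how much they varied. The highest library had 1.77 times the CPM of the lowest for Il1rn and 2.17 times for Il18, against 14.0 times for Osm, 21.2 times for Il10 and 37.4 times for Il1b.

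**Figure D1:**
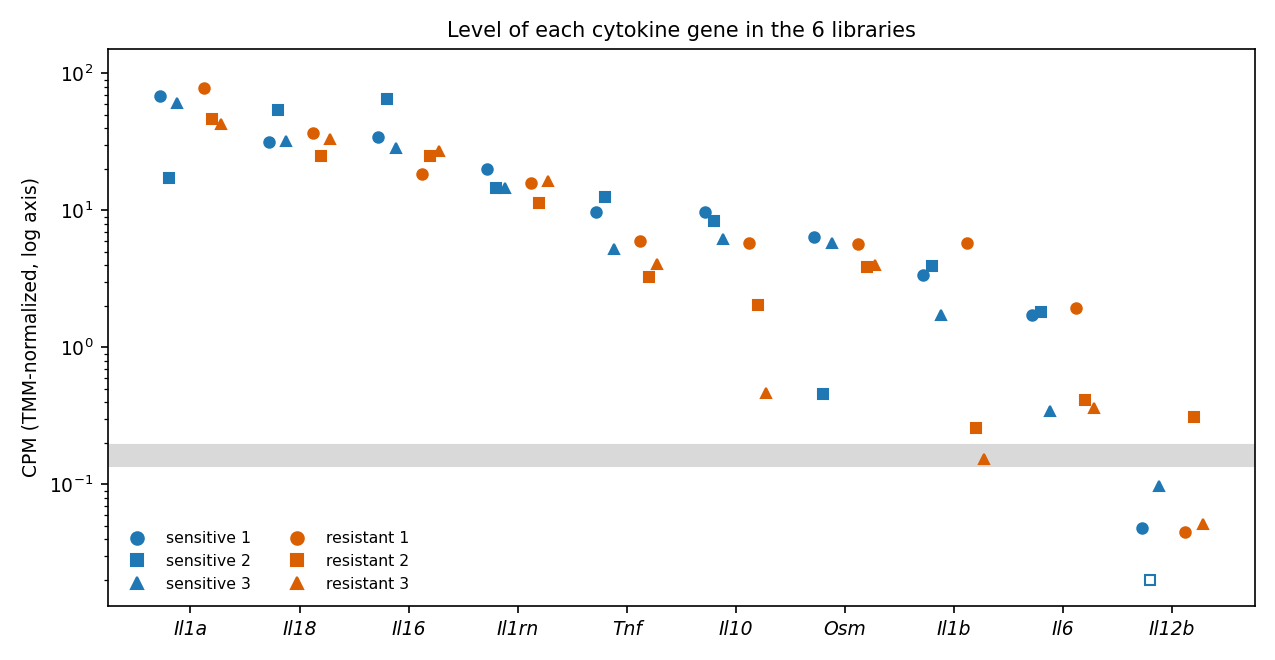
CPM (TMM-normalized, log axis) of the 10 cytokine genes in the 3 libraries of the sensitive group (blue) and the 3 of the resistant group (orange), with a marker shape for each replicate number. The grey band is the level of 3 counts (0.136 to 0.194 CPM), and the open square is the library with 0 counts of Il12b, drawn at the foot of the log axis. Il1a, Il18, Il16 and Il1rn lie above 10 CPM in every library, and Il1b ranges from 5.74 CPM to the band.

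Between the groups, 0 of the 9 members tested passed edgeR's quasi-likelihood test at a Benjamini-Hochberg adjusted p of 0.05, and their adjusted p-values lay between 0.940 and 0.986. Across all 15474 genes tested the share called was also 0%. DESeq2's Wald test and limma-voom likewise called 0 of the 9, while over all genes DESeq2 called 24 and limma-voom 0. Of the 9, 7 had a log2 fold change below 0 (lower in the resistant group), and 49.2% of all genes tested did. The median log2 fold change of the members was -0.50, against 0.01 over all genes tested, and leaving out sensitive replicate 2 gave -0.31. Before adjustment 2 members, Tnf and Il16, had a p below 0.05, both lower in the resistant group. That held for 3.08% of all genes (0.536% higher and 2.54% lower in the resistant group). Without sensitive replicate 2, 0 members had such a p (0.108 for Tnf and 0.0894 for Il16 from edgeR), against 632 of all 15965 genes tested. In that fit 9 of 9 members were below 0, but the share of all genes below 0 was not counted. With all 6 libraries the number of members with such a p was 3 with DESeq2 (Tnf, Il10 and Il16) and 1 with limma-voom (Il10). Over all 15474 genes it was 732 with DESeq2 and 384 with limma-voom. For 2 of the 9, Il10 and Il16, no library overlapped the other group, both lower in the resistant group, where 9.02% of all genes did not overlap (4.64% higher and 4.38% lower). Il12b did not pass the filter on low counts and was not tested.

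**Figure D2:**
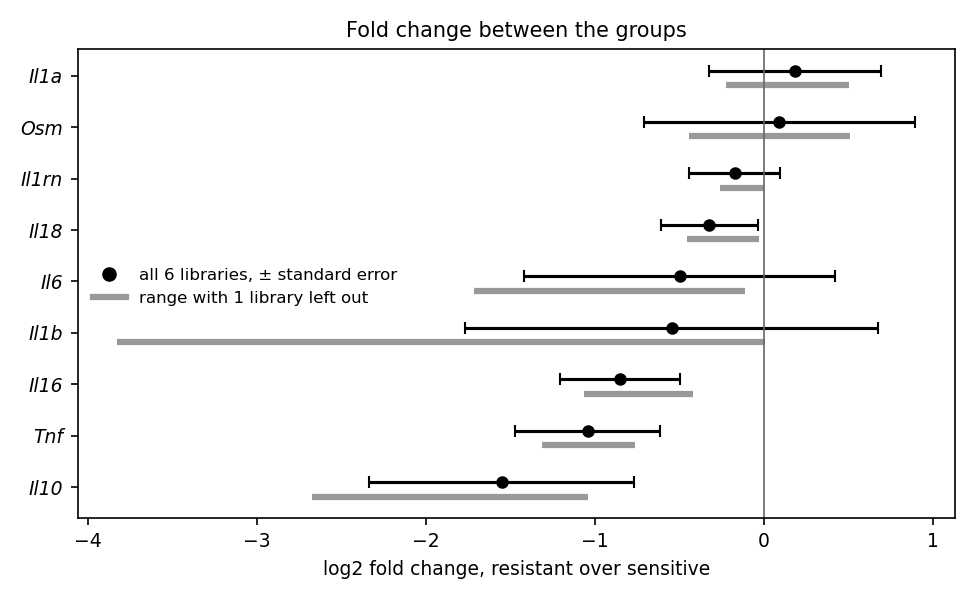
Log2 fold change of the 9 tested cytokine genes, resistant over sensitive group, from edgeR. Black points are the fit with all 6 libraries with its standard error, and grey bars are the range over the fits that leave out 1 library. Il10, Tnf and Il16 lie lowest, and the grey bar of Il1b runs from -3.83 to 0.01.

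Of the IL-1 agonists, Il1a was far above Il1b, at 4.23 to 270.5 times its FPKM. IL-1α (Il1a, chromosome 2 of GRCm38, 129299610 to 129309972) acts on the IL-1 receptor already as its full-length precursor. Il1a had 68.3, 17.3 and 61.2 CPM in the sensitive libraries and 77.8, 46.3 and 43.0 in the resistant ones. Replicate 2 of the sensitive group held the lowest level, and the other sensitive libraries fell between the resistant extremes. The log2 fold change was 0.19 (standard error 0.51), and -0.23 without that replicate. IL-1β (Il1b, chromosome 2, 129364570 to 129371139) is made as an inactive precursor that caspase-1 cleaves. Il1b had 71, 61 and 35 counts in the sensitive libraries and 127, 5 and 3 in the resistant ones, or 3.39, 3.95 and 1.71 against 5.74, 0.256 and 0.153 CPM. The resistant group thus held both the highest library and the lowest pair, of which one was at the level of 3 counts, and the groups overlapped. The log2 fold change of Il1b was -0.55 (standard error 1.22), and the fit without replicate 1 of the resistant group gave -3.83 (unadjusted p = 0.00222, adjusted p = 0.973 from edgeR). Il1b overlaps the antisense gene Il1bos, which had 0 to 18 counts, and Il1a overlaps Gm14023, with 9 to 35 counts, on the other strand. Whether the counting used strand is not given in the sources used here, so reads of each pair cannot be told apart with certainty.

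The antagonist of both agonists was the steadiest member. Il1rn (chromosome 2, 24336853 to 24351494) encodes the receptor antagonist, which occupies the IL-1 receptor without signalling. It had 19.9, 14.6 and 14.5 CPM in the sensitive group and 16.0, 11.2 and 16.4 in the resistant group. The groups overlapped between 14.5 and 16.4 CPM, and the log2 fold change was -0.17 (standard error 0.27). Set against each other within a library, where depth cancels, Il1b had 0.171, 0.272 and 0.119 times the counts of Il1rn in the sensitive group and 0.361, 0.0251 and 0.0109 times in the resistant group. Per length, in FPKM, Il1rn was at 0.958 to 36.9 times the level of Il1b, and Il1b was the higher in replicate 1 of the resistant group alone. In that library Il1b had fewer counts, 127 against 353 of Il1rn. The FPKM order there rests on the lengths used, 1907 bases for Il1b and 5535 for Il1rn. The mean log2 ratio was -2.50 ± 0.597 (SD, n = 3) for the sensitive and -4.44 ± 2.64 (SD, n = 3) for the resistant libraries (exact permutation test, two-sided, p = 0.4, adjusted p = 0.533 over 4 ratios, where 3 libraries against 3 cannot go below 0.1). Il1a counts exceeded those of Il1b by 4.35 to 35.3 times in the sensitive group and by 13.5, 164.3 and 240.1 times in the resistant libraries. The difference of the mean log2 ratios was 2.48 (exact permutation p = 0.3, two-sided, adjusted p = 0.533).

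Il18 was high and, after Il1rn, varied least of the tested members, with the highest library at 2.17 times the lowest. IL-18 (chromosome 9, 50554827 to 50581840) is another caspase-1 substrate, which macrophages and Kupffer cells store as a precursor without stimulation and which induces interferon-γ in lymphocytes. Il18 had 31.7, 54.3 and 32.3 CPM in the sensitive group and 36.6, 25.01 and 32.9 in the resistant group, and the groups overlapped. The log2 fold change was -0.32 (standard error 0.29), and -0.03 without replicate 2 of the sensitive group, its highest library. Set against its soluble inhibitor Il18bp, Il18 had 0.0629 to 0.188 times the counts of Il18bp in the sensitive group and 0.0934 to 0.145 times in the resistant group. The mean log2 ratio differed by 0.19 between the groups (exact permutation p = 0.9, two-sided, adjusted p = 0.9). Il18 overlaps Bco2, with 25 to 77 counts, and Tex12, with 0 to 10 counts, both on the other strand.

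**Figure D3:**
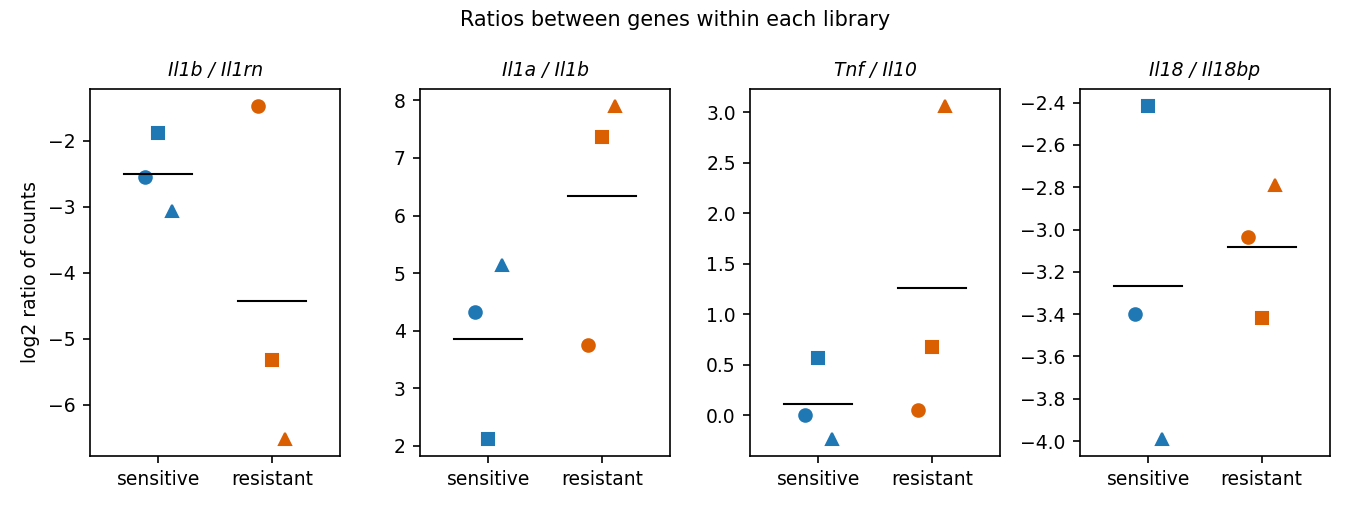
Log2 ratio of the counts of gene pairs within each library (0.5 added to each count), by group, with a marker shape for each replicate and a black line at the group mean. Each panel has its own axis. In the Il1b over Il1rn panel the resistant libraries lie at -1.47, -5.32 and -6.52, on both sides of the sensitive ones.

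Tnf was lower in the resistant group by its mean, but 1 sensitive library fell inside the resistant range. TNF (chromosome 17, 35199381 to 35202007) is released from the macrophage surface by the protease ADAM17. Tnf had 9.74, 12.5 and 5.22 CPM in the sensitive group and 5.97, 3.28 and 4.04 in the resistant group. The means were 9.15 ± 3.67 (SD, n = 3) and 4.43 ± 1.38 CPM (SD, n = 3), a log2 fold change of -1.04 (standard error 0.43, unadjusted p = 0.0445, adjusted p = 0.940 from edgeR). Without replicate 2 of the sensitive group the log2 fold change was -0.76.

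The gp130 cytokines were low. IL-6 (Il6, chromosome 5, 30013114 to 30019981) drives the acute phase response of hepatocytes. Il6 had 36, 28 and 7 counts in the sensitive libraries and 43, 8 and 7 in the resistant ones. The 3 libraries with 28 counts or more were sensitive replicates 1 and 2 and resistant replicate 1, which were also the 3 highest in Il1b and in Tnf. Its log2 fold change was -0.50 (standard error 0.92), which became -1.72 without resistant replicate 1, -0.95 without sensitive replicate 3 and -0.11 to -0.23 without any 1 of the other libraries. Oncostatin M (Osm, chromosome 11, 4236420 to 4241026) is made by macrophages and neutrophils and acts on hepatocytes, stromal and endothelial cells. Osm had 6.35, 0.453 and 5.81 CPM in the sensitive group and 5.65, 3.84 and 3.99 in the resistant group. The value of 0.453 CPM rests on 7 counts in replicate 2 of the sensitive group, and the other 5 libraries lay between 3.84 and 6.35. The log2 fold change was 0.09 (standard error 0.80), and -0.44 without that replicate, when the groups did not overlap, as held for 19.4% of all genes in those 5 libraries.

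Il10, which encodes the cytokine that restrains macrophages, had the largest fold change of the 9 members in the fit of all libraries, while Il1b exceeded it without resistant replicate 1 and with a block for the replicate number. Il10 (chromosome 1, 131019845 to 131024974) had 204, 130 and 126 counts in the sensitive libraries and 127, 40 and 9 in the resistant ones. In CPM these were 9.74, 8.42 and 6.15 against 5.74, 2.05 and 0.460, so that the groups did not overlap but came as close as 6.15 and 5.74. The log2 fold change was -1.55 (standard error 0.78, unadjusted p = 0.0878, adjusted p = 0.940 from edgeR), and it lay between -2.68 and -1.04 over the fits that leave out a library. Tnf and Il10 had similar counts in the sensitive group, with 1.00, 1.48 and 0.8498 Tnf counts for each of Il10. In the resistant group there were 1.04, 1.59 and 8.37, the last from the library with 9 counts of Il10 (exact permutation p = 0.2, two-sided, adjusted p = 0.533 for the mean log2 ratio). Il12b (chromosome 11, 44400063 to 44414033), which encodes the p40 subunit of IL-12 and IL-23, had 1, 0 and 2 counts in the sensitive group and 1, 6 and 1 in the resistant group. Only replicate 2 of the resistant group exceeded 3 counts, and no fold change is given.

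Il16 also separated the groups, by a narrow margin. IL-16 (chromosome 7, 83642825 to 83745726) is cut from a precursor by caspase-3 and attracts cells that carry CD4. Il16 had 34.4, 65.5 and 28.4 CPM in the sensitive group and 18.6, 25.1 and 27.3 in the resistant group, with replicate 2 of the sensitive group far above the rest. The means were 42.8 ± 19.9 (SD, n = 3) and 23.6 ± 4.53 CPM (SD, n = 3), and the lowest sensitive and the highest resistant library were 28.4 and 27.3. The log2 fold change was -0.85 (standard error 0.36, unadjusted p = 0.0473, adjusted p = 0.940 from edgeR), and -0.42 without replicate 2 of the sensitive group. Part of Il16 overlaps Stard5 on the other strand, which had 1156 to 2605 counts against 411 to 1012 of Il16, and how shared reads were counted is not given in the sources used here.

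The receptors for these cytokines differed widely in level and in how even they were, with mean CPM from 0.365 for Il12rb2, a chain of the IL-12 receptor, to 322.4 for Il18bp. Of 17 receptor and decoy genes tested, edgeR called 0 after adjustment and 0 before it (0 and 2 with DESeq2, 0 and 0 with limma-voom), 6 were above and 11 below 0, and 0 had groups that did not overlap. Over all 15474 genes DESeq2 had 732 with such a p before adjustment. The median log2 fold change of the 17 was -0.17, and without sensitive replicate 2 it was -0.34 with 14 of 17 below 0. The share of all genes below 0 without that library was not counted. The TNF receptors Tnfrsf1a (206 to 296.1 CPM) and Tnfrsf1b (281.2 to 348.9 CPM) and the shared gp130 chain Il6st (151 to 234.7 CPM) were even, with the highest library at 1.44, 1.24 and 1.55 times the lowest. The lowest Il6st value was of sensitive replicate 2. Without that library Il6st and Il18bp had an unadjusted p below 0.05 from edgeR, as held for 632 of 15965 genes, and 0 of the 17 were called after adjustment. Il18bp had the highest mean CPM of the list, with 289.4 to 514 CPM in the sensitive and 227.6 to 300 in the resistant group. The largest fold changes were of Il1r2, the decoy receptor for IL-1, at -1.88 (standard error 0.95), of Il18rap, the accessory chain of the IL-18 receptor, at -1.88 (standard error 0.86), and of its partner Il18r1 at -0.85 (standard error 0.61). Il1r2 had 164.6, 212.5 and 17.8 CPM in the sensitive libraries and 56.2, 42.0 and 8.745 in the resistant ones. Il18rap had 54.9, 68.0 and 7.81 against 21.2, 10.5 and 3.78 CPM in the same order. For both genes replicate 3 of the sensitive group lay inside the range of the resistant group.

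Of these receptor and decoy genes, Il1r2 and Il18rap ordered the libraries as neutrophil markers did, while Il18r1 and Il18bp did not. The CPM of 12 neutrophil markers summed to 5012, 7975 and 650.9 in the sensitive libraries and to 2026, 1584 and 333.3 in the resistant ones. The order of the 6 libraries was the same for this sum, Il1r2, Il18rap and the cytokine subunit gene Ebi3, an order shared by 0.814% of all genes tested. All 12 markers had a log2 fold change below 0, with a median of -1.68, and edgeR called 0 after adjustment (2 before it, and 0 and 5 with DESeq2, 0 and 1 with limma-voom). Over all 15474 genes p was below 0.05 before adjustment for 3.08% with edgeR, 732 genes with DESeq2 and 384 with limma-voom. No neutrophil marker was at 0 in all libraries. The part of neutrophil RNA in these values was not tested. The macrophage marker sum was 23236, 42309 and 37015 in the sensitive and 26765, 27574 and 30314 in the resistant group. Among the members, none had the library order of the neutrophil sum. The 3 libraries highest in each of Tnf, Il1b and Il6 were also the 3 highest in the neutrophil sum. They had 5012, 7975 and 2026 against 333.3 to 1584 CPM in the others. This match was not among the planned comparisons, and how many of all genes had the same 3 libraries highest was not counted. The same 3 libraries were also highest in the summed CPM of 5 mast cell and basophil markers. They had 8.31, 18.1 and 9.13 against 0.564 to 3.73 CPM. This held as well for the sum of 10 T and NK cell markers, of which only 2 passed the filter on low counts. That sum was 3.91, 15.2 and 2.67 against 0.769 to 1.81 CPM. The part of any of these cell types was not tested. Markers of T and NK cells summed to between 0.769 and 15.2 CPM and of B cells to between 0.409 and 2.64 CPM, with Klrb1c at 0 in every library. Dendritic cell markers summed to between 16.3 and 23.2 CPM, with Cd209a at 0 in every library. Hepatocyte markers summed to 28.8 to 92.6 CPM in the sensitive and 56.5 to 150.3 in the resistant libraries, and stellate cell markers to 86.5 to 166.2 and 89.1 to 367.5. Of the 10 pan-endothelial markers 9 were below 0, with a median log2 fold change of -1.14, and edgeR called 0 after adjustment and 4 before it (1 and 4 with DESeq2, 0 and 4 with limma-voom). Their sums overlapped between the groups, with 396.5, 273.5 and 491.3 CPM in the sensitive and 391.9, 78.8 and 414.5 in the resistant libraries. Only replicate 2 of the resistant group lay below the sensitive range. The part of these cell types in the cytokine values was not tested.

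**Figure D4:**
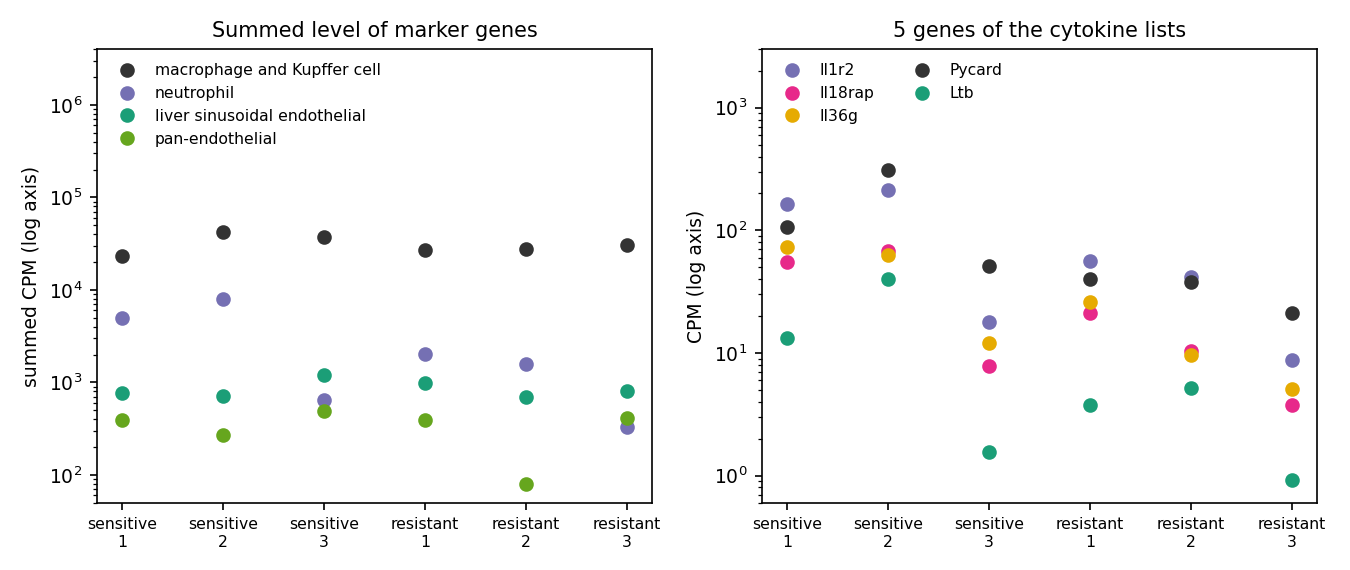
Left, summed CPM (log axis) of marker gene lists in each library. Right, CPM (log axis) of 5 genes of the cytokine lists in the same libraries. Neutrophil markers range from 333.3 to 7975 summed CPM while macrophage markers stay between 23236 and 42309, and Il1r2 and Il18rap order the libraries as the neutrophil sum does.

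Of the genes for maturation and release of IL-1β, IL-18 and TNF, 13 were tested, and edgeR, DESeq2 and limma-voom each called 0 after adjustment. Before adjustment p was below 0.05 for 3 with edgeR and with DESeq2, and 2 with limma-voom, all lower in the resistant group. Over all genes that held for 3.08% with edgeR (2.54% lower in the resistant group). With DESeq2 it held for 732 and with limma-voom for 384 of the 15474 genes. Pycard, the adaptor ASC that joins inflammasome sensors to caspase-1, had 106.6, 308.7 and 51.6 CPM in the sensitive and 40.3, 38.1 and 21.3 in the resistant group, a log2 fold change of -2.23 (standard error 0.65, adjusted p = 0.940 from edgeR). Mefv, the inflammasome sensor pyrin, had 29.5, 19.9 and 38.3 against 15.8, 14.0 and 3.38 CPM (log2 fold change -1.40, standard error 0.56). For both genes the groups did not overlap, as held for 9.02% of all genes tested (4.64% higher and 4.38% lower). Casp4, which encodes caspase-11 in the mouse, was at -0.98 (standard error 0.41), and its groups overlapped. Caspase-1 itself (Casp1) was even, with the highest library at 1.159 times the lowest and a log2 fold change of 0.06 (standard error 0.17). Adam17, the TNF-releasing protease, had 151.2, 94.5 and 150.9 CPM in the sensitive and 151.2, 153.2 and 174.1 in the resistant group, groups that did not overlap only by a small margin. Its log2 fold change was 0.27 (standard error 0.24). Gsdmd, which forms the pore for IL-1 release, was at -0.66 (standard error 0.30), and Rhbdf2, which brings ADAM17 to the surface, at 0.36 (standard error 0.32). The median of the 13 was -0.10, with 6 above and 7 below 0.

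Of 16 genes of NF-κB, STAT3 and their feedback, edgeR, DESeq2 and limma-voom each called 0, both after adjustment and before it. The median log2 fold change was -0.07, with 7 above and 9 below 0, and 0 had groups that did not overlap. Without sensitive replicate 2 the median became -0.19 with 13 of 16 below 0. The share of all genes below 0 in that fit was not counted. Nfkbia, the inhibitor that NF-κB itself induces, had the highest mean CPM of the list, with 320.5 to 414.6 CPM in the sensitive and 227.9 to 429.2 in the resistant group. Irf8 (222.2 to 332.9 CPM) and Irf5 (156.3 to 226.6 CPM), transcription factors of macrophages, and Stat3 (137.9 to 221.9 CPM) followed. The largest fold change was of Socs3, a feedback inhibitor of gp130 signalling, at -0.77 (standard error 0.57). It had 74.0, 80.5 and 91.15 CPM in the sensitive and 94.4, 32.7 and 16.9 in the resistant group, so that replicate 1 of the resistant group was the highest of all and the other resistant libraries the lowest. Socs1 was at -0.45 (standard error 0.55) and Tnfaip3, which ends NF-κB signals, at -0.34 (standard error 0.38).

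**Figure D5:**
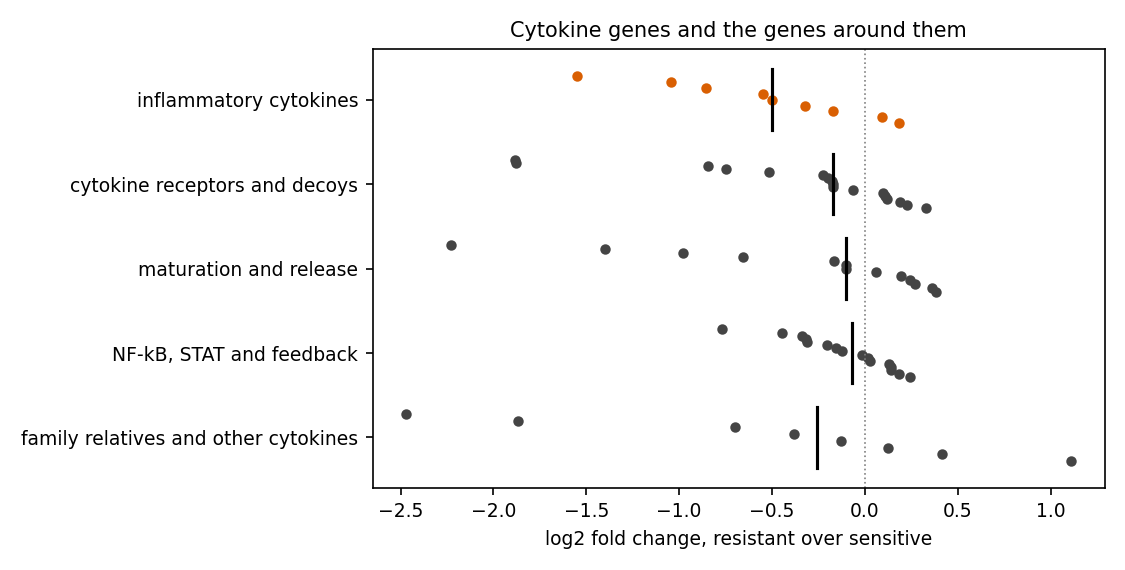
Log2 fold change, resistant over sensitive group, of every tested gene in the cytokine set (orange) and in 4 lists of related genes (grey), with a black line at each median. The medians are -0.50 for the cytokines and -0.17, -0.10, -0.07 and -0.26 for the lists below them, and every list has genes on both sides of 0.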

How the data were processed

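RNA-seq counts of 6 libraries labelled as LSECs were analysed, 3 per group, grouped by sample titles. Per the labels and the study's methods, the authors aligned reads with HISAT2 2.0.5, counted them on genes with featureCounts 1.5.0-p3 and deposited raw counts without normalization, and the submitters' notes name mm9. The authors also deposited FPKM values, which divide counts by library total and gene length. A further table with group means, fold changes and p-values of the authors' own DESeq2 comparison was not used. For the libraries the sources give ribosomal RNA depletion and, in the methods, poly(A) selection as well.

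Coordinates are of GRCm38 (GENCODE M21), matched by Ensembl identifier, and the deposited table holds none. The counts were tested with edgeR 4.0.16 under R 4.3.3 (filterByExpr, TMM, quasi-likelihood test with robust moderation, two-sided, Benjamini-Hochberg over all 15474 genes tested). Standard errors are those implied by the F statistic. Ratios of counts were compared by exact permutation tests. Alternatives were DESeq2 1.42.0, limma 3.58.1, other scalings and filters, log2(FPKM + 1), a block for the replicate number, and fits that omit 1 library. The members and lists were chosen with earlier results of these data known. The genes named are all members and, in each related list, the 4 with the highest mean CPM and the 3 with the largest absolute log2 fold change. Others were named after their values were seen (Il1bos, Gm14023, Bco2, Tex12, Stard5, Mcam, Klrb1c, Cd209a, Casp1, Il12rb2 and the undetected or low cytokine genes). No pair of libraries within a group agreed within sampling noise.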

Additional observations from a re-analysis of the deposited data

How the results depend on the processing

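With 0 genes called in edgeR's test, DESeq2 gave 24 over those genes and edgeR gave 2 with no filter on low counts, and the cause was not tested. It was 0 under the other alternatives and ranged from 0 to 0 when each library was left out. Before adjustment p was below 0.05 for 476 genes, and for 167 to 1056 with 1 library left out. No member was called under any alternative. The log2 fold changes of Tnf, Il1rn, Il6, Il10, Il16 and Il18 kept their sign under every alternative. That of Il1a ranged from -0.23 to 0.50, of Il1b from -3.83 to 0.009 and of Osm from -0.44 to 0.51 when each library was left out. The difference in the log2 ratio of Il18 to Il18bp ranged from -0.17 to 0.61 in the same way, of Il1b to Il1rn from -3.42 (without resistant replicate 1) to -0.90 (without resistant replicate 3), of Il1a to Il1b from 1.61 (without sensitive replicate 2) to 3.77 (without resistant replicate 1) and of Tnf to Il10 from 0.25 (without resistant replicate 3) to 1.76 (without resistant replicate 1). The number of members whose groups did not overlap, 2 with all libraries, ranged from 2 to 4, and without replicate 1 of the resistant group 23.5% of all genes did not overlap. Il12b had no alternative, since it passed no filter, and Il1b, Il6, Il10 and Osm did not pass that of at least 10 counts in every library.

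Same-numbered libraries share a number, and the study's methods name no pairing. The correlations of their deviations from the group means were -0.00, 0.03 and 0.19. With 3 libraries per group these cannot show whether the libraries were paired. A block for the replicate number gave 0 genes after adjustment and 467 before it, and the log2 fold changes were -2.13 for Il1b and -2.08 for Il10. Depth limits Il12b, Il6 and the lowest libraries of Il1b, Il10 and Osm, with fewer than 10 counts.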

Other observations

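Of 23 relatives and other cytokines, 22 were matched in the table and 8 were tested, of which edgeR called 0 after adjustment and 0 before it (0 and 2 with DESeq2, 0 and 0 with limma-voom). Over all 15474 genes DESeq2 had 732 with p below 0.05 before adjustment. Il36g, an epithelial and myeloid member of the IL-1 family, was listed under the symbol Il1f9. It had 73.6, 63.0 and 12.01 CPM in the sensitive libraries and 25.85, 9.69 and 5.06 in the resistant ones (log2 fold change -1.87, standard error 0.80). Ltb, the lymphotoxin gene beside Tnf, had 13.2, 40.1 and 1.56 against 3.75, 5.18 and 0.920 CPM (log2 fold change -2.47, standard error 1.10). In both, replicates 1 and 2 of the sensitive group were the highest libraries, as they were in the neutrophil marker sum. Lif, the neighbour of Osm on chromosome 11, had 67, 17 and 10 counts in the sensitive and 92, 67 and 55 in the resistant group (log2 fold change 1.11, standard error 0.69), and the groups overlapped. Ebi3, a subunit of IL-27 and IL-35, was at -0.38 (standard error 0.38) and Il15 at 0.13 (standard error 0.27), with 7.32 to 9.58 CPM in the 6 libraries. Il36a, Il36b, Il1f10, Il20, Il17a and Il13 had 0 counts in every library, and Ifng had 1 count in 1 library.

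The genes whose log2 CPM ran closest to that of a member over the 6 libraries were named by their root-mean-square difference, each profile centred on its own mean. For Il1a these were Il15ra (0.0796) and Med15 (0.128), for Il1rn Nedd9 (0.0519) and Evi2 (0.0835), for Il16 Gm7536 (0.126) and Gm16023 (0.134) and for Il18 Cers4 (0.0632) and Ric8a (0.0711). With 15474 genes searched over 6 libraries, some profiles match closely by number alone.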
